A study of Mus musculus with 24 samples.

Results

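The 9 genes described here mark the B lineage and the route by which it delivers IgA into the gut lumen: 4 B cell genes (Cd79a, Cd79b, Ms4a1, Cr2), 4 plasma cell genes (Jchain, Mzb1, Tnfrsf17, Pou2af1) and the epithelial IgA transporter Pigr. They were chosen by function and taken with every probe set annotated to their symbols, Jchain also under its older symbol Igj. This gave 11 probe sets of the 45137 on both array types, and 9 genes of 18193. A probe set is a group of short oligonucleotides that together report 1 transcript or several related transcripts. The study measured total RNA of whole colon from BALB/c mice, an inbred strain, on Affymetrix MOE430A and MOE430B arrays, 12 of each. The mice, 6 to 8 weeks old, ate their diet from 2 days before an enema on day 0 and were killed on day 7. The groups were curcumin diet with TNBS enema, standard diet with TNBS enema, curcumin diet with control enema and standard diet with control enema, with 3 samples each. The curcumin diet held 2% curcumin, the yellow polyphenol of turmeric. TNBS, trinitrobenzene sulfonic acid, is a hapten that causes colitis when given into the colon. RNA of 3 mice was pooled, and nothing in the labels tells if each sample comes from its own pool, so p-values here measure only the spread between these samples, which may be technical.

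B cells recognise antigen through a membrane immunoglobulin that signals through its partners CD79A and CD79B, and they gather in the lymphoid follicles of the colon wall. Plasma cells, their secreting descendants, fill the lamina propria of the gut and mostly make IgA, which is joined into dimers by the J chain. The polymeric immunoglobulin receptor, encoded by Pigr, binds dimeric IgA and pentameric IgM at the base of epithelial cells and carries them into the lumen.

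The tissue and the colitis were checked first. Of the defining genes of colon epithelium, Car1 (a carbonic anhydrase of colonocytes) had 12310 to 19922 signal units over the 12 samples and Epcam, an epithelial adhesion gene, 8586 to 11753. Lcn2, an antimicrobial gene of inflamed epithelium, had 6003, 2957 and 5714 units in standard-diet TNBS colons, against 56.9, 114 and 72.8 units in standard-diet control colons. The curcumin-diet TNBS colons had 135, 123 and 159 units of Lcn2, and the curcumin-diet control colons 82.1, 101 and 710 units. Lcn2 thus separated both enemas on the standard diet, and the third curcumin-diet control sample lay apart from the other 2 of its group. On 430A, 2 sets of 6 arrays, parted by the first principal component, correlated at a mean of 0.912 with each other and 0.943 within themselves. They are unexplained by the labels, cut across all 4 groups, and a second fit of 430A adjusts for them. Each group has a single sample in 1 of the sets, so a difference within a set has a single sample on at least 1 side. On 430B, samples 2 and 3 of curcumin-diet TNBS stood apart, with a mean correlation of 0.770 to the other arrays, against 0.904 among those. This touches Mzb1, the one member measured on 430B, whose values are given with and without them. Pancreas acinar genes were also on the arrays in very uneven amounts: without Zg16, which goblet cells express too, their summed signal ran from 3376 to 153100 units over the 12 samples. The part of pancreas tissue in the results below was not tested.

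None of the 8 tested genes differed between groups past an adjusted p of 0.05 in any of the 7 comparisons made, in each of which 0.0% to 0.609% of all tested probe sets passed in 1 direction. The test was limma on log2(signal + 16) across all tested probe sets of an array type, with Benjamini-Hochberg adjustment. Tnfrsf17 and the dimmer Ms4a1 probe set lay under the filter on low signals and were described without it. In whole tissue, fewer cells of a type and less RNA per cell cannot be told apart. The 4 simple comparisons share groups with each other, so their values are given side by side and not as separate evidence.

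**Figure D1:**
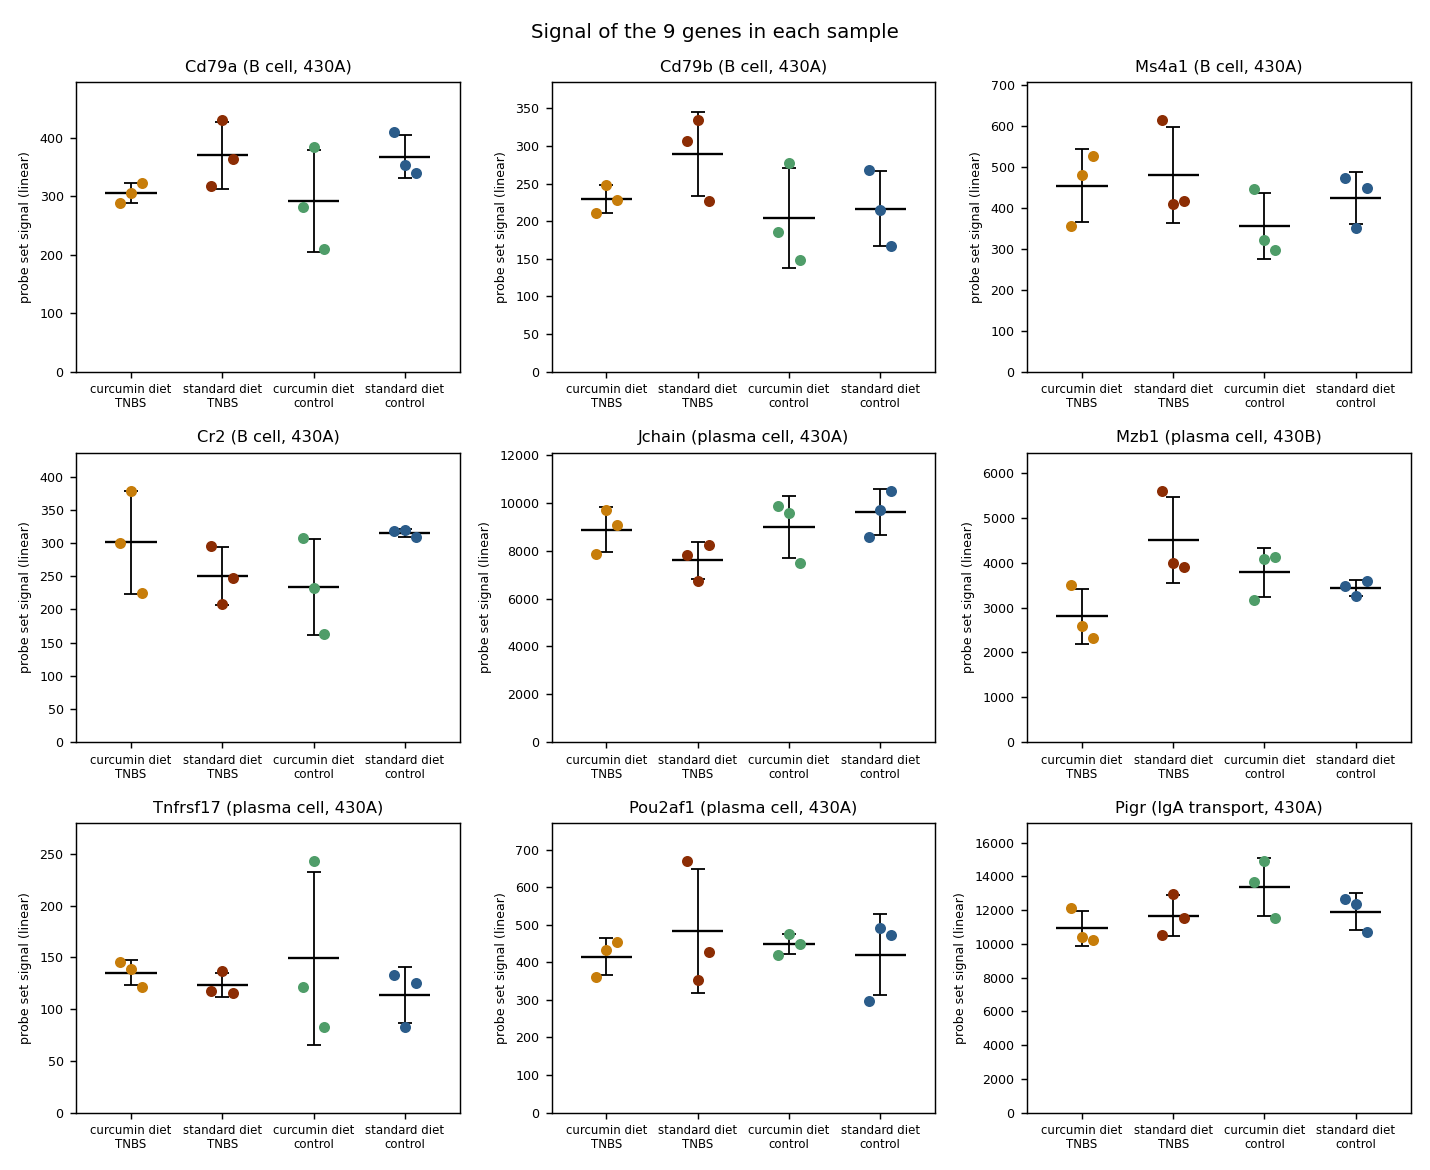
Probe set signal (linear scale, from 0) of the 9 genes in each of the 12 samples, by group. Points are samples, the long bar is the group mean and the whiskers are 1 SD (n = 3); where a gene has several probe sets, the main one is drawn. The groups overlap for most genes, and the standard-diet TNBS points of Jchain and Cr2 lie below, and those of Mzb1 above, all 3 standard-diet control points.

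The B cell receptor genes Cd79a and Cd79b were measured near the middle of the signal range. Cd79a had 287, 305 and 323 units in curcumin-diet TNBS colons, 316, 430 and 363 in standard-diet TNBS colons, 281, 384 and 210 in curcumin-diet control colons and 410, 353 and 340 in standard-diet control colons. Cd79b had 212, 248 and 229 units in curcumin-diet TNBS colons, 307, 335 and 226 in standard-diet TNBS colons, 186, 278 and 148 in curcumin-diet control colons and 268, 216 and 168 in standard-diet control colons. Both genes were lowest in the same sample, the third curcumin-diet control, and highest in the second standard-diet TNBS sample. In TNBS against control on the standard diet, Cd79b had a log2 difference of 0.40 ± 0.25 (standard error; limma adjusted p = 0.709) and Cd79a one of 0.00 ± 0.20 (limma adjusted p = 0.997). The 95% interval for Cd79b, -0.15 to 0.94, leaves room for a change of either sign, and without the third standard-diet control the Cd79b difference was 0.23. The groups of both genes overlapped in all 4 simple comparisons.

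Ms4a1 encodes CD20, the membrane protein of mature B cells. Its brighter probe set had 355, 481 and 528 units in curcumin-diet TNBS colons, 615, 409 and 417 in standard-diet TNBS colons, 447, 321 and 298 in curcumin-diet control colons and 473, 352 and 449 in standard-diet control colons. The first standard-diet TNBS sample was the highest and no 2 groups separated. The log2 difference was 0.16 ± 0.22 for TNBS against control on the standard diet (limma adjusted p = 0.888) and 0.34 ± 0.22 on the curcumin diet (limma adjusted p = 1.00). Without the first standard-diet TNBS sample the Ms4a1 difference on the standard diet was -0.03. The other Ms4a1 probe set, at 22.8 to 148 units, gave a difference of -0.53 ± 0.49 for the first of these comparisons, opposite in sign to the brighter one (limma adjusted p = 0.905, fitted with no filter on low signals). That dim probe set had 22.8 to 54.3 units in the first set of arrays and 75.2 to 148 in the second, so its values followed the array sets and not the groups.

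Cr2 encodes complement receptor 2, found on mature B cells and on follicular dendritic cells. It had 301, 379 and 224 units in curcumin-diet TNBS colons, 296, 208 and 248 in standard-diet TNBS colons, 307, 232 and 163 in curcumin-diet control colons and 318, 320 and 309 in standard-diet control colons. The 3 standard-diet control samples lay between 308.7 and 319.9 units, while the curcumin-diet groups spread widely. All standard-diet TNBS samples were below all standard-diet controls, with a log2 difference of -0.33 ± 0.24 (limma adjusted p = 0.752), which was -0.21 for Cr2 without the second standard-diet TNBS sample. All curcumin-diet controls were also below the standard-diet controls, by -0.45 ± 0.24 (limma adjusted p = 0.999); the highest of them, 307.4 units, lay next to the lowest standard-diet control, 308.7 units. The interaction, the TNBS effect on curcumin minus that on the standard diet, was 0.69 ± 0.35 for Cr2 (limma adjusted p = 0.536). Within the first set of arrays it was 1.05 and within the second 0.01, with a single sample for some groups in each set.

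Jchain, which encodes the peptide that links IgA dimers and IgM pentamers, was among the brightest probe sets of 430A. It had 7854, 9710 and 9076 units in curcumin-diet TNBS colons, 7805, 6725 and 8256 in standard-diet TNBS colons, 9888, 9579 and 7503 in curcumin-diet control colons and 8594, 9710 and 10519 in standard-diet control colons. The standard-diet TNBS samples lay below all 3 standard-diet controls, the highest of them 8256 units against a lowest control of 8594. Jchain averaged 7595 ± 787 units in standard-diet TNBS colons and 9607 ± 967 in standard-diet control colons (SD, n = 3 each), a fold of 0.791. The log2 difference was -0.34 ± 0.13, with a 95% interval of -0.63 to -0.05 and a limma adjusted p of 0.446. Adjusted for the array sets it was -0.27 (limma adjusted p = 0.284). It was -0.21 within the first set of arrays, with a single control sample, and -0.37 within the second, with a single TNBS sample. On the curcumin diet the difference between TNBS and control was -0.01 ± 0.13 (limma adjusted p = 1.00), and the interaction was 0.33 ± 0.19 (limma adjusted p = 0.594).

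Mzb1 encodes a chaperone of the endoplasmic reticulum that helps assemble and secrete immunoglobulin. It had 3505, 2594 and 2316 units in curcumin-diet TNBS colons, 5612, 4005 and 3896 in standard-diet TNBS colons, 3160, 4079 and 4135 in curcumin-diet control colons and 3487, 3251 and 3586 in standard-diet control colons. All 3 standard-diet TNBS samples were above all standard-diet controls, and all 3 curcumin-diet TNBS samples were below all standard-diet TNBS samples. Under TNBS, curcumin against standard diet gave a log2 difference of -0.68 ± 0.18 for Mzb1 (limma adjusted p = 0.0646), the nearest to the threshold of any tested member. Without the 2 outlying 430B arrays, which are the samples at 2594 and 2316 units, the difference was -0.34 (limma adjusted p = 0.943) and rested on 1 curcumin-diet TNBS sample, assumed to vary like the other groups. With the remaining curcumin-diet TNBS sample left out instead, so that only the outlying arrays stood for the group, it was -0.85 and passed (limma adjusted p = 0.00522). TNBS against control on the standard diet, which does not use those arrays, gave 0.37 ± 0.18 (limma adjusted p = 0.956), and 0.20 without the first standard-diet TNBS sample, the highest of all 12 for Mzb1.

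Pou2af1 encodes OBF-1, a coactivator of octamer-binding transcription factors in B and plasma cells. It had 360, 432 and 453 units in curcumin-diet TNBS colons, 669, 353 and 428 in standard-diet TNBS colons, 421, 474 and 449 in curcumin-diet control colons and 297, 491 and 474 in standard-diet control colons. The first standard-diet TNBS sample, at 669 units, was the highest of all 12, and every pair of groups overlapped. The log2 difference of 0.18 ± 0.24 between TNBS and control on the standard diet (limma adjusted p = 0.883) was -0.08 without that sample.

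Tnfrsf17 encodes BCMA, the receptor through which long-lived plasma cells receive survival signals. It had 146, 138 and 122 units in curcumin-diet TNBS colons, 117, 137 and 116 in standard-diet TNBS colons, 122, 243 and 82.7 in curcumin-diet control colons and 133, 82.3 and 126 in standard-diet control colons. These values lie below the filter on low signals, which corresponds to 179.5 units on 430A, and only the second curcumin-diet control exceeded it. The TNBS and control groups overlapped on both diets, and the log2 difference on the standard diet was 0.12 ± 0.34 (limma adjusted p = 0.985, fitted with no filter).

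Pigr was read by 2 probe sets on 430A, both bright. The main one had 12126, 10406 and 10241 units in curcumin-diet TNBS colons, 10509, 12982 and 11544 in standard-diet TNBS colons, 13675, 14904 and 11509 in curcumin-diet control colons and 12677, 12375 and 10673 in standard-diet control colons. The other had 8971, 8410 and 8318 units in curcumin-diet TNBS colons, 7824, 8867 and 7431 in standard-diet TNBS colons, 9630, 9573 and 8518 in curcumin-diet control colons and 9014, 10391 and 9345 in standard-diet control colons. The probe sets disagreed on where Pigr was lowest: the main one in curcumin-diet TNBS colons, the other in standard-diet TNBS colons. On the second probe set all standard-diet TNBS samples lay below all standard-diet controls, by -0.25 ± 0.10 on the log2 scale (limma adjusted p = 0.442), while the main one gave -0.03 ± 0.12 with overlapping groups (limma adjusted p = 0.971). On the curcumin diet the main probe set had the larger difference between TNBS and control, -0.29 ± 0.12 (limma adjusted p = 1.00), and the second -0.11 ± 0.10 (limma adjusted p = 1.00). Averaged over both diets, TNBS against control gave -0.16 ± 0.09 on the main and -0.18 ± 0.07 on the second probe set, neither past the threshold (limma adjusted p = 1.00 for both).

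Jchain and Pigr act in sequence, linking IgA and carrying it, and the standard-diet TNBS samples lay below their controls on Jchain and on 1 of the Pigr probe sets. Their upstream sequences are shown for that reason, as the 250 bases before the annotated start in RefSeq's GRCm38.p6, 5′ to 3′ on the gene's strand. Pigr lies on chromosome 1 and Jchain on chromosome 5, and the windows are chr1:130826434-130826683 (plus strand) and chr5:88527898-88528147 (minus strand). Capitals mark the E-box CACGTG, a motif picked after the windows were read.
Pigr: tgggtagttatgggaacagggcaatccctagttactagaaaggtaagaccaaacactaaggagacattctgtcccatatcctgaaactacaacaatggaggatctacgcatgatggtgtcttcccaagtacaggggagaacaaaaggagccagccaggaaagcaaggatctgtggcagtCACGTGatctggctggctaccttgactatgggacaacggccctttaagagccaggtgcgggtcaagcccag
Jchain: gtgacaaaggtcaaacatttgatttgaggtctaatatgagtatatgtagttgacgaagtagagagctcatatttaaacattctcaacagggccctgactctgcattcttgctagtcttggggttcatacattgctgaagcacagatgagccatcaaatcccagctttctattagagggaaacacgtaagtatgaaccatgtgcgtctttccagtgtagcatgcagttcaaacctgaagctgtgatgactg
The Pigr E-box starts 71 bases before the annotated start, and 6.02% of the 32851 windows of the same length in the table hold one. Its reverse complement reads the same, so both strands were covered. The octamer ATGCAAAT, the motif of the factors that Pou2af1 assists, was searched on both strands (ATTTGCAT on the other). It was found in 0 of the 6 members with a window (Cd79a, Cr2, Jchain, Tnfrsf17, Pou2af1, Pigr) and in 1.60% of all windows. No match says only that these letters are not in the window.

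For TNBS against control on the standard diet, the comparison that asks what colitis changed, the 8 tested genes had a median log2 difference of 0.08 and a range of -0.34 for Jchain to 0.40 for Cd79b. Of all 27081 tested probe sets, 0.00739% rose and 0.0% fell past the threshold, so 0 of 8 is no result about these genes. Their main probe sets did not overlap between groups in 1 gene that was higher (Mzb1) and 2 that were lower (Jchain and Cr2). Over all tested probe sets, 7.01% of 430A and 6.79% of 430B were wholly higher, and 7.65% of 430A and 7.46% of 430B wholly lower. The median difference over all tested probe sets was -0.02 on each array type. Unadjusted, 1 of the 8 genes had p under 0.05 by its main probe set (Jchain), as did 7.27% of all tested probe sets. The second Pigr probe set had an unadjusted limma p of 0.026.

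For TNBS against control on the curcumin diet, the median over the 8 genes was 0.04, from -0.44 for Mzb1 to 0.36 for Cr2. None passed, and 0.0591% of all tested probe sets rose and 0.144% fell. None of the 8 genes had groups that did not overlap, which was so for 3.42% (higher) and 3.67% (lower) of tested probe sets on 430A and for 10.9% and 9.41% on 430B. By main probe sets, Mzb1 and Pigr had an unadjusted p under 0.05, against 13.3% of all tested probe sets. The second Pigr probe set had an unadjusted limma p of 0.305. The Mzb1 difference of -0.44 ± 0.18 was -0.10 without the outlying 430B arrays (limma adjusted p = 0.990).

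For the curcumin against the standard diet under TNBS, the median over the 8 genes was -0.13. By main probe sets, 6 genes were on the lower side and Cr2 and Jchain on the higher. The second Pigr probe set, at 0.09 ± 0.10, and the dim Ms4a1 probe set, at 0.53 ± 0.49, were opposite in sign to their main ones. Over all tested probe sets 0.196% rose and 0.609% fell past the threshold. Mzb1 alone had groups that did not overlap, as did 11.8% of tested 430B probe sets on that side (12.7% on the higher side). On 430A, 8.18% were wholly higher and 7.98% wholly lower. The Jchain difference was 0.22 ± 0.13 (limma adjusted p = 0.628), and Cd79a and Cd79b gave -0.26 ± 0.20 and -0.30 ± 0.25 (limma adjusted p = 0.745 and 0.763). Unadjusted, Mzb1 alone had p under 0.05, against 16.9% of all tested probe sets.

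By main probe sets, 5 of the 8 genes were on the lower side for the curcumin against the standard diet under the control enema. Their median over the 8 was -0.10. None passed, while 0.0% of all tested probe sets rose and 0.00369% fell, and 0 had an unadjusted p under 0.05, against 3.61% of all. Cr2 alone did not overlap, on the lower side, as did 3.73% of tested 430A and 5.57% of 430B probe sets (3.12% and 4.24% on the higher side). For the interaction of diet and enema, 0 of 8 passed, against 0.0% of all tested probe sets that were higher and 0.0332% lower. Mzb1 had the widest interaction, -0.81 ± 0.26 (limma adjusted p = 0.178), which was -0.47 without the outlying arrays (limma adjusted p = 0.811). Averaged over diets, TNBS against control passed in 0 of 8 genes (0.00369% of all tested probe sets higher, 0.0111% lower). Averaged over enemas, curcumin against standard diet passed in 0 of 8 (0.00369% higher, 0.0% lower), and Cd79a had -0.30 ± 0.14 there (limma adjusted p = 1.00). By main probe sets, an unadjusted p under 0.05 was found for 1 of the 8 genes in the interaction (Mzb1, with 13.5% of all tested probe sets). It was found for 0 in the average over diets (7.22%) and for 0 in the average over enemas (7.5%). The second Pigr probe set had an unadjusted limma p of 0.0252 in the average over diets.

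**Figure D2:**
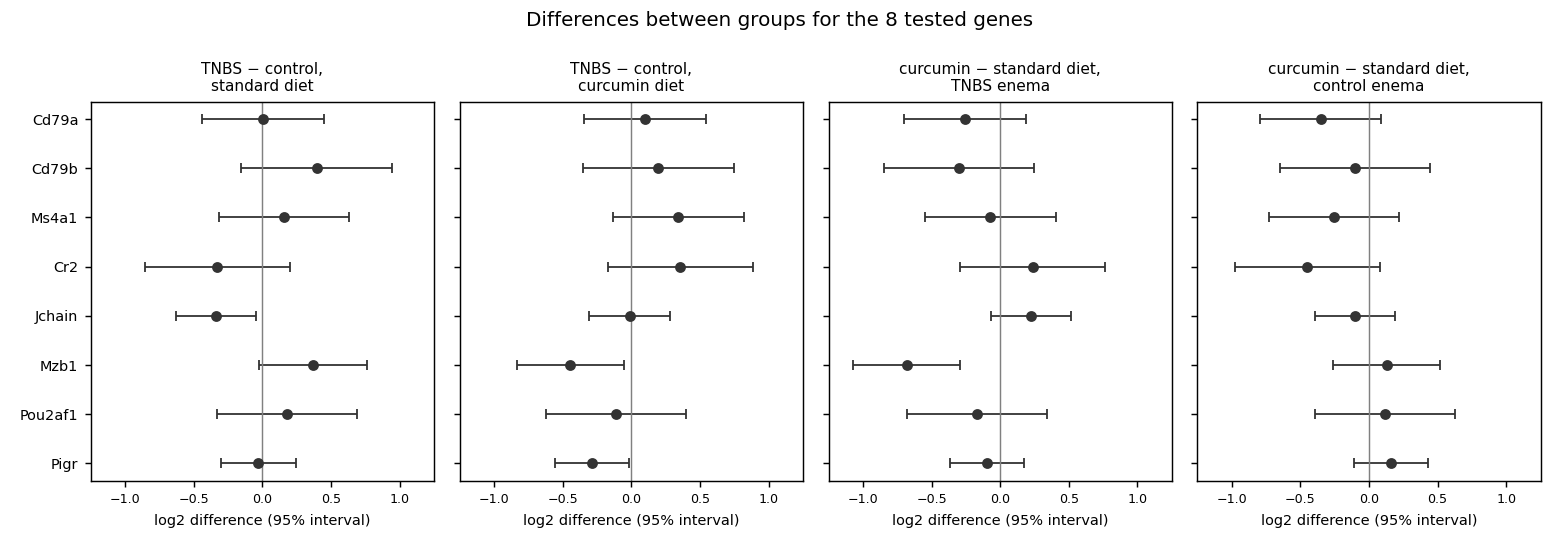
Log2 difference (x axis, points) with its 95% interval (whiskers) for the 8 tested genes (rows) in the 4 simple comparisons (panels). Jchain lies below 0 with its interval in the standard-diet TNBS comparison and Mzb1 in both comparisons that use the curcumin-diet TNBS group. The other intervals contain 0, apart from that of the main Pigr probe set in TNBS against control on the curcumin diet.

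Across the 4 groups, the highest group mean was 1.17 times the lowest for Pou2af1, 1.19 and 1.22 times for the second and the main Pigr probe set, 1.27 times for Jchain and Cd79a and 1.31 times for Tnfrsf17. It was 1.35 times for Cr2 and the brighter Ms4a1 probe set, 1.42 times for Cd79b and 1.61 times for Mzb1. The dim Ms4a1 probe set, whose values followed the array sets, had the widest ratio, 2.28 times. In order of group mean, Jchain was highest in standard-diet controls, then curcumin-diet controls, curcumin-diet TNBS and standard-diet TNBS. Cd79b and Ms4a1 had another order, highest in standard-diet TNBS, then curcumin-diet TNBS, standard-diet controls and curcumin-diet controls. Of the 33 pairs of neighbours in the orders of the 11 probe sets, 1 did not overlap, against 4.84% of such pairs over all tested probe sets. It was Cd79a, whose curcumin-diet TNBS samples lay below the standard-diet controls, as did those of 3.39% of tested 430A probe sets. The other 32 pairs overlapped.

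The immunoglobulin chains that these cells make were read by 56 probe sets, 33 of them tested, and none passed in any comparison. Probe sets of this family can bind transcripts of related chains, so a value may belong to more than 1 gene. Igha, the heavy chain of IgA, had 3 probe sets, all near the top of the range. The first of them had 13011, 12465 and 11649 units in curcumin-diet TNBS colons, 11331, 14730 and 9770 in standard-diet TNBS colons, 11999, 17735 and 11205 in curcumin-diet control colons and 14511, 11680 and 11256 in standard-diet control colons. These groups overlapped throughout. For TNBS against control on the standard diet, the 3 Igha probe sets gave log2 differences of -0.12 to -0.04 (limma adjusted p = 0.884 to 0.964).

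Ighm, the heavy chain of IgM, gave other values. Its probe set with the widest difference had 555, 426 and 514 units in curcumin-diet TNBS colons, 5199, 1812 and 1391 in standard-diet TNBS colons, 376, 582 and 2258 in curcumin-diet control colons and 684, 365 and 564 in standard-diet control colons. All standard-diet TNBS samples were above all samples of the standard-diet control and curcumin-diet TNBS groups, and the third curcumin-diet control, the sample with raised Lcn2, stood apart from its group. The log2 difference was 2.15 ± 0.58 for TNBS against control on the standard diet (limma adjusted p = 0.196) and -2.22 ± 0.58 for curcumin against standard diet under TNBS (limma adjusted p = 0.186). Adjusted for the array sets the first was 2.09 (limma adjusted p = 0.131). It was 1.20 within the first set of arrays, with a single control sample. It was 3.47 within the second, with only the highest standard-diet TNBS sample, at 5199 units.

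The Ighm probe set with the next widest difference had 345, 288 and 381 units in curcumin-diet TNBS colons, 2812, 868 and 619 in standard-diet TNBS colons, 306, 400 and 1005 in curcumin-diet control colons and 357, 381 and 399 in standard-diet control colons. It had the same order of samples within standard-diet TNBS, with the first far above the others. Its log2 difference was 1.56 ± 0.49 for TNBS against control on the standard diet (limma adjusted p = 0.291) and -1.73 ± 0.49 for curcumin against standard diet under TNBS (limma adjusted p = 0.223). Without the first standard-diet TNBS sample these Ighm differences were 0.92 and -1.09 (limma adjusted p = 0.468 and 0.386). Next in the comparison of diets was another Ighm probe set, at -1.24 ± 0.68 (limma adjusted p = 0.585), and at -0.53 without that sample. All 7 tested probe sets annotated to Ighm alone were on the higher side in the first comparison, with a median of 1.03 and a range of 0.13 to 2.15, and all 7 on the lower side in the second, with a median of -1.20. Without the first standard-diet TNBS sample, 1 of them was at -0.05 in the first comparison and 0.02 in the second, opposite in sign. A further tested probe set, annotated to Ighm together with a variable segment gene, gave -0.28 ± 0.52 in the first and 0.08 ± 0.52 in the second (limma adjusted p = 0.927 and 0.977). The 7 read 1 gene, so they are not separate evidence. Ighg3, a gamma heavy chain, had 1 of 4 probe sets tested, at 1.05 ± 1.06 in the first comparison (limma adjusted p = 0.833) and 0.09 without the first standard-diet control sample.

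Light chain probe sets gave values on both sides, more often on the lower. Of the 33 tested immunoglobulin probe sets, 13 were on the higher and 20 on the lower side for TNBS against control on the standard diet. These counts include heavy chains. Among the higher were 7 Ighm and 1 Ighg3 probe sets. Among the lower were 3 Igha probe sets and the Ighm probe set shared with a variable segment gene. Groups did not overlap in 2 of the higher ones, both Ighm, and in 4 of the lower ones, all light chains. Over all tested probe sets, 7.01% of 430A and 6.79% of 430B were wholly higher, and 7.65% and 7.46% wholly lower. Igkv4-72, Igk and Igkv8-30, kappa chain segments named here after their values were seen, were 3 of those 4 lower ones, at -0.94 ± 0.37, -0.69 ± 0.34 and -0.34 ± 0.13 (limma adjusted p = 0.441, 0.581 and 0.392). The last of the 4 is annotated to several lambda chain genes and gave -0.95 ± 0.23 (limma adjusted p = 0.152).

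**Figure D3:**
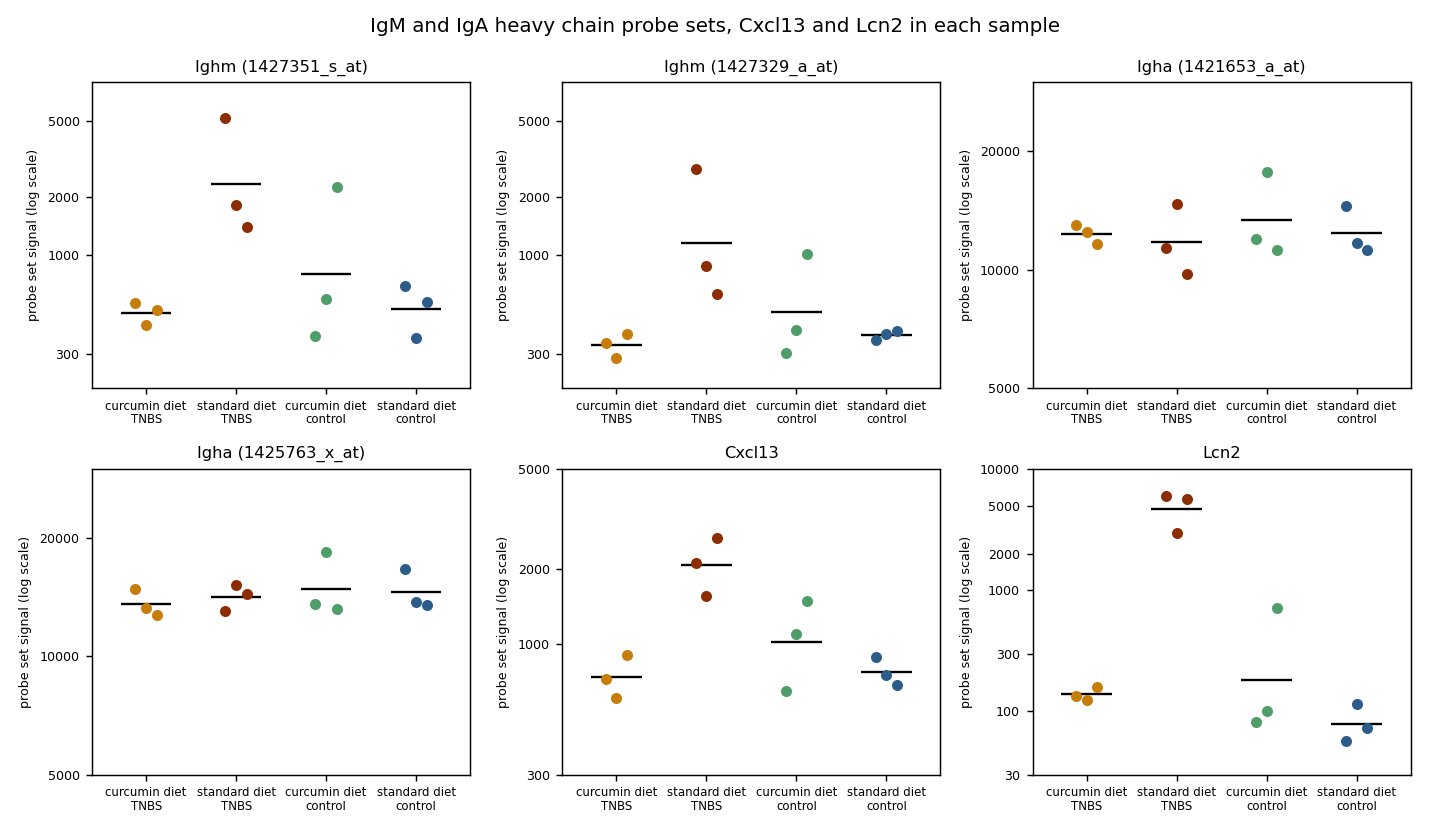
Probe set signal (log scale) of Ighm (2 probe sets), Igha (2 probe sets), the chemokine gene Cxcl13 and the colitis gene Lcn2 in each of the 12 samples, by group. Points are samples and the bar is the geometric mean. The 3 standard-diet TNBS points of Ighm, Cxcl13 and Lcn2 lie above all standard-diet control and curcumin-diet TNBS points, those of Igha do not, and the third curcumin-diet control is the highest of its group on Ighm, Cxcl13 and Lcn2.

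Of 30 further B cell and follicle genes, 28 were on the arrays and 24 tested, and none passed in any comparison. For TNBS against control on the standard diet 12 were on the higher side and 12 on the lower, with a median of 0.00. Cxcl13, the chemokine that draws B cells into follicles, had 725, 607 and 903 units in curcumin-diet TNBS colons, 2109, 1560 and 2660 in standard-diet TNBS colons, 647, 1092 and 1491 in curcumin-diet control colons and 888, 754 and 687 in standard-diet control colons. All standard-diet TNBS samples exceeded every other sample of the study. The log2 difference was 1.40 ± 0.28 for TNBS against control on the standard diet (limma adjusted p = 0.0986) and -1.47 ± 0.28 for curcumin against standard diet under TNBS (limma adjusted p = 0.108). Within the sets of arrays, with a single sample on 1 side of each, the first was 1.18 and 1.53. Adjusting for the sets gave a limma adjusted p of 0.0555. Cd40, a costimulatory receptor of B cells read on 430B, had -0.50 ± 0.59 in the first of these comparisons and 0.97 ± 0.59 in the second (limma adjusted p = 0.999 and 0.333). Without the outlying 430B arrays the Cd40 difference in the second was -0.23 (limma adjusted p = 0.991). Tnfrsf13c, the BAFF receptor, had 0.42 ± 0.44 in the first, and Bcl11a, a lymphoid transcription factor, 0.49 ± 0.49 in the second (limma adjusted p = 0.840 and 0.806).

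Of 20 further plasma cell genes, 15 were tested and none passed. The 3 with the largest differences for TNBS against control on the standard diet were Fkbp11, a folding enzyme of secretory cells (0.52 ± 0.22), Sdf2l1, an endoplasmic reticulum gene (0.46 ± 0.20), and Trp53inp1 (-0.33 ± 0.19), with limma adjusted p of 0.496, 0.506 and 0.657. Under TNBS, curcumin against standard diet gave Fkbp11 -0.61 ± 0.22, Creld2 -0.33 ± 0.20 and Trp53inp1 0.32 ± 0.19 (limma adjusted p = 0.355, 0.636 and 0.629). Fkbp11 had 279, 333.3 and 320 units in curcumin-diet TNBS colons and 572, 394 and 493 in standard-diet TNBS colons, which did not overlap. The same held on that side for 7.98% of tested 430A probe sets. Over the list the median was 0.08 for the first comparison, as for the 8 members.

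Of 18 genes of IgA induction and homing to the gut, 17 were on the arrays and 7 tested, and none passed in the planned fit. Madcam1, the vessel ligand by which gut-homing lymphocytes enter, had 220, 258 and 245 units in curcumin-diet TNBS colons, 327, 359 and 355 in standard-diet TNBS colons, 206, 331 and 224 in curcumin-diet control colons and 187, 214 and 263 in standard-diet control colons. Tgfb1, whose product drives the switch to IgA, had 294, 305 and 315 units in curcumin-diet TNBS colons, 517, 487 and 618 in standard-diet TNBS colons, 307, 379 and 375 in curcumin-diet control colons and 365, 349 and 361 in standard-diet control colons. In both genes the standard-diet TNBS samples lay above the standard-diet controls and above the curcumin-diet TNBS samples. Of all tested 430A probe sets, 7.01% were wholly higher in TNBS against control on the standard diet. Wholly lower in curcumin against standard diet under TNBS were 7.98%. For TNBS against control on the standard diet the log2 difference was 0.62 ± 0.20 for Madcam1 and 0.57 ± 0.14 for Tgfb1 (limma adjusted p = 0.319 and 0.174). For curcumin against standard diet under TNBS it was -0.50 ± 0.20 and -0.79 ± 0.14 (limma adjusted p = 0.413 and 0.104), and Tgfb1 passed there in the fit that adjusts for the array sets (-0.76, limma adjusted p = 0.046). In that fit and comparison, 0.125% of all tested 430A probe sets rose and 0.0958% fell past the threshold. Il21, a helper cytokine of B cells, had 0.47 ± 0.40 in the first comparison, and Ccl25, a chemokine for gut-homing cells, -0.79 ± 0.22 in the second (limma adjusted p = 0.999 and 0.0721). Ccl25 was read on 430B, and its adjusted p was 0.782 without the outlying arrays.

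Marker lists of other cells were read beside these values, and their part in the results was not tested. The summed signal of 22 B cell and follicle genes on 430A was 11190 to 12820 units in curcumin-diet TNBS colons, 12940 to 13580 in standard-diet TNBS colons, 10630 to 11560 in curcumin-diet control colons and 11160 to 12480 in standard-diet control colons. Without Cxcl13 it was 10470 to 12060 units in curcumin-diet TNBS colons, 10640 to 11470 in standard-diet TNBS colons, 9136 to 10540 in curcumin-diet control colons and 10410 to 11800 in standard-diet control colons. The standard-diet TNBS samples stood above both other groups they are compared with only with Cxcl13 in the sum, and overlapped them without it. That of 8 genes of follicle-associated epithelium was 3520 to 4988 units in curcumin-diet TNBS colons, 7159 to 12830 in standard-diet TNBS colons, 4473 to 6483 in curcumin-diet control colons and 3840 to 7276 in standard-diet control colons. Gp2, a receptor of M cells that pancreas also expresses, made up much of it in some samples, and without Gp2 the sum was 3320 to 4202 units in curcumin-diet TNBS colons, 5100 to 5845 in standard-diet TNBS colons, 4249 to 4890 in curcumin-diet control colons and 3677 to 3932 in standard-diet control colons. The genes Ccl9 and Anxa5 are on that list too. The log2 differences for TNBS against control on the standard diet were 1.87 ± 1.18 for Gp2, 1.06 ± 0.28 for Ccl9 and 0.53 ± 0.23 for Anxa5, none past the threshold (limma adjusted p = 0.703, 0.196 and 0.505), and Gp2 was at 0.57 without the first standard-diet control sample. For curcumin against standard diet under TNBS they were -2.71 ± 1.18, -1.07 ± 0.28 and -0.59 ± 0.23 (limma adjusted p = 0.460, 0.192 and 0.386).

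Lists for 4 further tissues and cell types had 0 called members too. Of 14 epithelial genes the median was 0.03 for TNBS against control on the standard diet, with Cdx2 at -0.35 ± 0.17, Slc26a3 at -0.29 ± 0.13 and Cdh1 at -0.21 ± 0.19 as the largest. The summed epithelial signal was 98820 to 102200 units in standard-diet TNBS colons and 92500 to 105400 in standard-diet control colons, so it overlapped. Of 16 T cell genes 3 were tested (Zap70 0.46 ± 0.22, Cd5 0.14 ± 0.24, Cd8a -0.09 ± 0.15). Of 11 lymph node stroma and vessel genes 5 were tested, with Ltbr at 0.33 ± 0.19, Lyve1 at 0.30 ± 0.25 and Cd34 at -0.14 ± 0.15. The 14 tested pancreas genes had a median of 1.83, with Ctrb1 at 2.56 ± 2.33, Pnliprp1 at 2.52 ± 2.33 and Reg1 at 2.44 ± 1.86, and all of their groups overlapped. For curcumin against standard diet under TNBS, the 3 largest in each list stood as follows. Among epithelial genes Slc26a3, a chloride transporter of colonocytes, was at 0.44 ± 0.13 with groups that did not overlap, Cdx2 at 0.42 ± 0.17 and the mucin gene Muc2, on 430B, at -0.57 ± 0.27 (limma adjusted p = 0.251, 0.431 and 0.208). Of all tested 430A probe sets, 8.18% were wholly higher there, as Slc26a3 was. Without the outlying 430B arrays Muc2 was at -0.16. Zap70, Cd8a and Cd5 had -0.42 ± 0.22, -0.20 ± 0.15 and 0.11 ± 0.24, and Lyve1, Ltbr and Cxcl12 -0.44 ± 0.25, -0.33 ± 0.19 and -0.29 ± 0.16. The pancreas genes Pnliprp1, Ctrb1 and Reg1 had -3.63 ± 2.33, -3.48 ± 2.33 and -3.40 ± 1.86, none past the threshold.

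Across the 12 samples the 9 genes did not vary as 1 group. Of their 36 pairs, 24 had a positive Pearson r, and the median r was 0.11. The closest pair was Cd79a and Cd79b, which encode partners of the same receptor, with r = 0.723 (permutation p = 0.00726, adjusted over the 36 pairs 0.261) and Spearman's rho = 0.643 (permutation p = 0.0281, adjusted 0.462). Without the 2 samples farthest from the median of Cd79a, r was 0.363. Leaving them out narrows the range, which can by itself lower r, so their part is not settled. With group means taken out r was 0.786. Within the first set of arrays it was 0.956 and within the second -0.07. No pair passed after adjustment. Jchain and Mzb1, both of secreting cells, had r = -0.49 (permutation p = 0.102, adjusted 0.635) and Spearman's rho = -0.60 (permutation p = 0.0430, adjusted 0.462), with the outlying 430B arrays included. Without the 2 samples farthest from the median of Jchain, r was -0.59.

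**Figure D4:**
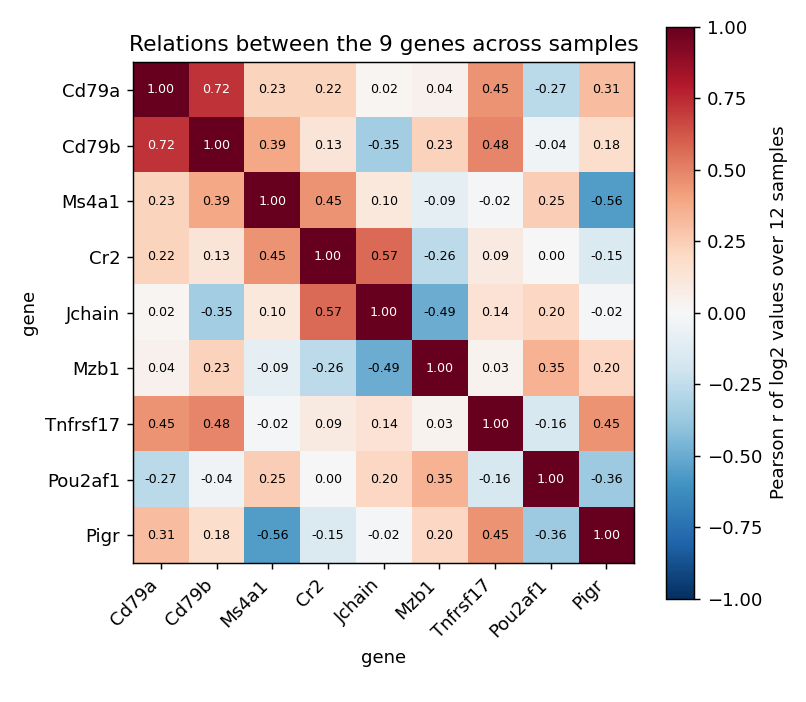
Pearson r of log2 values over the 12 samples for every pair of the 9 genes (rows and columns), with the colour from blue (-1) to red (1). Cd79a with Cd79b, at 0.72, is the highest of the 36 pairs and Ms4a1 with Pigr, at -0.56, the lowest.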

How the data were processed

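Signals were used as deposited: the authors made them with GCOS on a linear intensity scale, per the submitters' processing notes, with a version not given in the sources used here. Arrays carry no read depth; the number of arrays limits the precision, with a typical (median) standard error of 0.198 for log2 differences on 430A and 0.257 on 430B. An array's median signal was 226.8 to 284.0 (430A) or 256.4 to 346.1 (430B), and 0 of the 66 pairs of arrays of a type were identical. Probe sets took their names from the platform annotation, where 20380 of 22626 on 430A and 14661 of 22511 on 430B have 1 gene symbol, 691 and 245 several and 1555 and 7605 none.

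A pseudocount of 16 was added before log2, so fold changes of dim genes are understated. Probe sets with a mean above the 40th percentile of their array type were tested (13575 on 430A, 13506 on 430B). limma 3.58.1 (R 4.3.3) fitted 4 group means over 12 arrays per type, with eBayes and an intensity trend (8 residual degrees of freedom), checked on simulated data. P-values are two-sided, adjusted by Benjamini-Hochberg within a type. A gene's main probe set is its brightest tested one, 430A before 430B. The second fit adjusts for the array sets on 430A, by a further model term, and leaves out the 2 outlying arrays on 430B. Correlations used scipy 1.17.1 with 100000 permutations.

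The members, the lists and the rule for naming genes were chosen with earlier results of these data known. The rule names all members, list members that passed, and, for TNBS against control on the standard diet and for curcumin against standard diet under TNBS, the 3 with the largest difference per list. Promoter windows were found for 6 of 9 members in RefSeq (GRCm38.p6). Other settings tried were pseudocounts of 1 and 64, no filter and the 60th percentile, quantile normalization, median centring, no trend, 2 groups alone, a gene's mean over probe sets, and each sample left out.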

Additional observations from a re-analysis of the deposited data

How the results depend on the processing

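Over 857 refits of the 40 differences of the 8 tested genes in 5 comparisons, the sign differed from the reported one in 27, and 25 of the 40 differences had no such refit. The count of members past the threshold was 0 except without curcumin-diet TNBS sample 1, when it was 0 to 1 in TNBS against control on the curcumin diet, in curcumin against standard diet under TNBS and in the interaction. That gene was Mzb1, at -0.62, -0.85 and -0.98 (limma adjusted p = 0.0267, 0.00522 and 0.0207), and the group then held only the 2 outlying 430B arrays. Counts over all probe sets moved more. For TNBS against control on the standard diet, 430A had 1 higher and 0 lower, 9 and 4 after quantile normalization and 34 and 29 when adjusted for the array sets. For curcumin against standard diet under TNBS, 430B had 51 higher and 163 lower, against 0 and 3 without the outlying arrays, and for TNBS against control on the curcumin diet 16 and 39, against 0 and 2. The causes were not tested. No paired analysis was possible because the sample numbers run from 1 to 12 over the groups and pair no samples. Signals near the filter, as for Tnfrsf17, give wide intervals.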

Other observations

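The genes whose levels ran most like those of 3 members over the 12 samples were looked up on 430A among 8347 other genes, by Pearson r of log2 values, as a description. For Cd79a they were Ercc3 (r = 0.882), Kmt2a (0.864), Arrb1 (0.853), Zfp275 (0.847) and Dact1 (0.833). For Jchain they were Nudt16l1 (0.917), Cfap298 (0.915), Abca8a (0.912), Strn (0.896) and Ylpm1 (0.893). For Pigr they were Cdkn2c (0.932), Brd3 (0.923), Tmbim6 (0.908), Prkx (0.907) and Jund (0.889). None of these 15 is an immunoglobulin gene or another member, and the points share the array sets. Mzb1 (on 430B), Tnfrsf17 (under the filter) and probe sets with several gene symbols, as for many light chains, were not searched.

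The third curcumin-diet control sample had the lowest Cd79a, Cd79b, Cr2 and brighter Ms4a1 probe set of all 12 samples. Its 430A array had a low median signal, 232.7 units in a range of 226.8 to 284.0. The main fit did not adjust for this, and its part was not tested. In the same sample Lcn2 (710 units), Ighm (2258 units on the probe set with the widest difference) and Cxcl13 (1491 units) were the highest of their group. The first standard-diet TNBS sample had the highest Pou2af1, Mzb1 and brighter Ms4a1 probe set of all 12. It was also the highest on all 7 tested probe sets annotated to Ighm alone. It was not the highest on every Ighm probe set under the filter, nor on the tested probe set shared with a variable segment gene. With 3 samples a group, no test of a single sample was made.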
